A study of Mus musculus with 20 samples.

Results

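The 32 genes described here encode the unfolded protein response and the secretory chaperones of the endoplasmic reticulum (ER), the compartment in which proteins bound for the cell surface or the extracellular matrix are folded. They were chosen as a named list, with earlier results of these data known. Each was represented by the probe set (a group of array probes for 1 transcript) that named this gene alone and was brightest over all 20 arrays. All 32 were measured, out of 17097 genes. RNA came from dermal fibroblasts of female mice of a strain not given in the sources used here. Per the labels, the subdermis was removed, the skin was treated with collagenase, and 10000 cells were sorted that carried Pdgfra and CD34 and lacked CD45, CD117, CD24, CD31 and EpCam. The RNA was amplified over 20 cycles and read on 1 array per mouse, in 4 groups of 5 mice. The labels give Young ND mice an age of 4 weeks and a normal diet (ND) lasting 4 weeks, and do not settle their age at collection. The other 15 mice started at 9 months and were killed at 18 months. Old ND mice stayed on the normal diet for all 9 months. Old CR mice had 2 months of normal diet and then 7 months of caloric restriction (CR) by 30%, which lasted until collection. Old CR-ND mice had the reverse order, 7 restricted months followed by 2 on the normal diet. The numbers that the array titles carry fall into a first run of 13 and a second run of 7, with no word on what a run is. Of the 5 arrays of a group, the second run held 2 of Young ND, of Old ND and of Old CR-ND, and 1 of Old CR.

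The unfolded protein response is the pathway by which a cell matches its folding capacity to the load of new protein in the ER. Its sensors in the ER membrane are IRE1 (gene Ern1), which splices the mRNA of the transcription factor XBP1, PERK (gene Eif2ak3), which slows translation and favours synthesis of the transcription factor ATF4, and ATF6, which is cut in the Golgi to release a transcription factor. XBP1 and ATF6 raise transcription of chaperones, of the machinery that discards misfolded proteins and of transport genes, and dermal fibroblasts depend on this machinery because they secrete large amounts of collagen.

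With age on a normal diet, 11 of the 32 genes fell and 0 rose, led by the translocation and export genes. The major ER chaperones Hspa5 and Hsp90b1 were not among the 11. Age here means Old ND against Young ND, whose label gives 4 weeks. No group of an age between Young ND and the old mice was measured. Growing up and growing old therefore cannot be told apart in this difference, and their parts were not tested. Under restriction in old mice, Creld2, Manf and Herpud1 fell by 0.80 ± 0.15, 0.61 ± 0.14 and 0.47 ± 0.11 on the log2 scale (± standard error, n = 5 per group), and 0 rose. Of all 32 members, 17 stood higher and 15 lower in that comparison, with a median of 0.01. The calls of Manf and Herpud1 were lost without some single arrays, as given below. Creld2, Manf and Herpud1 differed by -0.20, -0.32 and -0.20 in Old ND against Young ND without passing. Whether the age and diet differences differ was not tested. In mice returned to the normal diet Creld2 and Herpud1 were higher than in restricted mice. All levels are log2 array levels, differences are between group means on that scale, and p-values are from limma, adjusted by Benjamini-Hochberg over 17097 genes and called at 0.05. The labels describe the 5 mice of a group as biological replicates. In these sorted cell pools, fewer cells of a kind and less RNA per cell cannot be told apart.

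The share of all genes called sets the scale for these counts. In Old ND against Young ND 6.49% of all genes fell and 4.45% rose, against 11 and 0 of the 32 members, whose median difference was -0.21. In Old CR against Old ND 0.819% of all genes fell and 1.57% rose, against 3 and 0 members (median 0.01). In Old CR-ND against Old ND 0.00585% of all genes, that is 1 gene, rose and 0% fell, and 0 members were called by limma. At an unadjusted p under 0.05 that comparison held 5 members and 868 of all genes. In Old CR-ND against Old CR 0.123% of all genes rose and 0.211% fell, against 2 and 0 members (median 0.15). Old CR fell below Young ND in 17 members and rose in 0, with 5.56% of all genes lower and 7.11% higher (median of the members -0.34). Old CR-ND fell below Young ND in 5 members and rose in 0, with 3.82% of all genes lower and 3.22% higher (median -0.14). The 3 comparisons with Young ND share its 5 arrays, and those of Old CR with Old ND and of Old CR-ND with Old CR share the 5 Old CR arrays, as the age and restriction comparisons share the 5 Old ND arrays, so these sets of calls are not independent of each other. Over the 4 groups at once, limma's moderated F called 15 of the 32 members and 12.9% of all genes. Medians over all genes lay between -0.01 and 0 in the 6 comparisons.

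**Figure D1:**
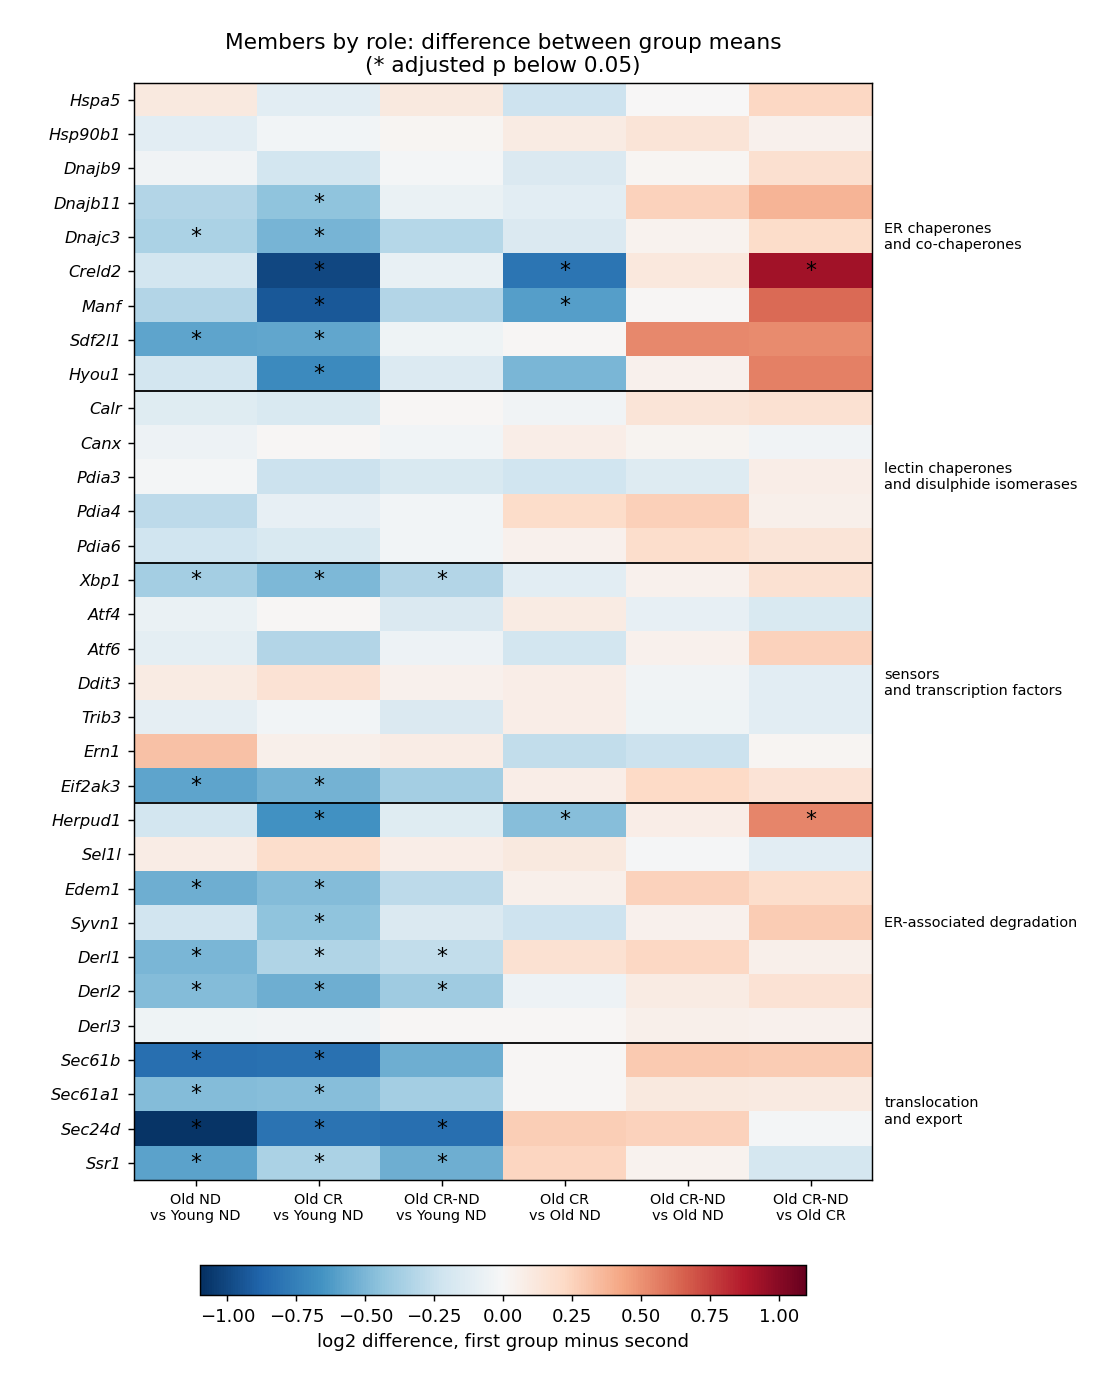
Log2 difference of each of the 32 genes (rows, by role) in 6 comparisons (columns, first group minus second), coloured from -1.1 (blue) to 1.1 (red), with an asterisk where limma's adjusted p was below 0.05. All 4 translocation and export genes are marked in Old ND vs Young ND and in Old CR vs Young ND, and Creld2, Manf and Herpud1 carry the 3 marks of Old CR vs Old ND.

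The promoters of these genes are known for short elements through which ATF6 and XBP1 act. RefSeq promoter windows of build GRCm38.p6, from 250 bases before to 50 after the start of transcription, were at hand for 27 of the 32 members (28 windows). They were searched on both strands for the ER stress response element ERSE (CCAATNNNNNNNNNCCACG), its shorter form ERSE-II (ATTGGNCCACG), the unfolded protein response element UPRE (TGACGTGG) and the amino acid response element CARE (TGATGNAAT). ERSE, ERSE-II and the complement of UPRE share the letters CCACG, so their matches can overlap. No member window held more than 1 kind of these 3 elements in the exact letters searched, and near matches were not counted. The longer stretches printed below hold such near matches: ERSE-II but for its last letter in Creld2, and ERSE up to its last letter at the end of Herpud1. ERSE was present in 9 of these 27 members (Calr, Canx, Creld2, Derl3, Dnajc3, Hsp90b1, Hspa5, Pdia6 and Syvn1), against 0.137% of 27025 genes with a window. ERSE-II was present in Dnajb11 and Herpud1, against 0.0444% of those genes. UPRE was present in Sec24d, against 0.714%, and CARE, in the form searched, in 0 members, against 1.08%. That form fixes the last letter as T, and forms with another last letter were not searched. The longer Herpud1 stretch printed below holds, on its opposite strand, all fixed letters of CARE but this last one. The stretches below are shown because Creld2, with ERSE, and Herpud1, with ERSE-II, were called in both diet comparisons while Hspa5 and Hsp90b1, with ERSE like Creld2, were called in none, and because Sec24d had the largest age difference. Capitals mark the fixed letters of the matched element, and each stretch is written 5′ to 3′ on the strand that carries the match.
Creld2: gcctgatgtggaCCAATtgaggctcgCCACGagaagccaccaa
Herpud1: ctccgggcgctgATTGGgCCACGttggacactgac
Hspa5: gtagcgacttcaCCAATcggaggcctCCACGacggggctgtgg
Hsp90b1: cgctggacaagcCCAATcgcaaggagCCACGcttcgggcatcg
Dnajc3: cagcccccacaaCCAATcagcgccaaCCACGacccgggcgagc
Syvn1: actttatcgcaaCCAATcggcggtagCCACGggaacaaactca
Sec24d: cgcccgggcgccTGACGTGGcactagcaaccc
The Creld2 stretch is chr15:88819508-88819550 on the minus strand, opposite to the gene, and its element lies 108 to 126 bases before the start. For Herpud1 it is chr8:94386365-94386399 on the plus strand (42 to 52 bases before the start), and for Hspa5 chr2:34772013-34772055 on the plus strand (47 to 65 bases before). Hsp90b1 holds 2 ERSE matches, of which the one shown is chr10:86705626-86705668 on the minus strand (194 to 212 bases before). Dnajc3 is shown at chr14:118937815-118937857 (87 to 105 bases before), Syvn1 at chr19:6046520-6046562 (26 to 44 bases before) and Sec24d at chr3:123267458-123267489 (19 to 26 bases before), all 3 on the plus strand. A match describes letters in a window and is no evidence of binding. Of the 11 members with ERSE or ERSE-II, Dnajc3 alone fell in Old ND against Young ND, and Creld2 and Herpud1 fell in Old CR against Old ND. Of the 16 members whose window held neither in the exact letters, among them Sec24d with its UPRE, 8 fell in Old ND against Young ND and 0 in Old CR against Old ND. The remaining 5 members had no window in the table, and among them Sec61a1 and Derl1 fell with age and Manf under restriction. Of all genes, 6.49% fell in Old ND against Young ND and 0.819% in Old CR against Old ND. The 1 of 11 with ERSE or ERSE-II in the former, and the 0 of 16 with neither in the latter, are near these shares. Whether these classes of members differ was not tested.

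The whole stretch of 250 bases before the start is given for the pair of genes called in both diet comparisons, with the same capitals, on the strand of the gene. That of Creld2 is chr15:88819396-88819645 and that of Herpud1 is chr8:94386179-94386428, both on the plus strand.
Creld2: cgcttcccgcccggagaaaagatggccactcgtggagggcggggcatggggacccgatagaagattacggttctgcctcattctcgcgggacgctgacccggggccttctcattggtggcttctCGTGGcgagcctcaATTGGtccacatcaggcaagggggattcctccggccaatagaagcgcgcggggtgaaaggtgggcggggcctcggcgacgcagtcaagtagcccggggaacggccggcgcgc
Herpud1: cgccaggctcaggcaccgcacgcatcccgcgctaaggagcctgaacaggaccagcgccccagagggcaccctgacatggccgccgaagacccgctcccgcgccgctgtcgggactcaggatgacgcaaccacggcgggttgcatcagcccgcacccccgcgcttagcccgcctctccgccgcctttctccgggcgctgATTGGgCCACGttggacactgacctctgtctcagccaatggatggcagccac

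Among the 9 ER chaperones and co-chaperones, 2 fell in Old ND against Young ND, 2 in Old CR against Old ND and 6 in Old CR against Young ND, and 1 rose in Old CR-ND against Old CR. Creld2 encodes an ER protein with thioredoxin-like motifs that is induced by ER stress. Values are given here and below in the order of replicates 1 to 5. Creld2 levels were 9.55, 9.65, 9.92, 9.55 and 10.06 in Young ND, and 9.24, 9.42, 9.66, 9.55 and 9.88 in Old ND. Creld2 in Old CR stood at 8.90, 8.55, 8.43, 8.61 and 9.24, and in Old CR-ND at 9.42, 10.04, 9.46, 9.68 and 9.73. The 4 Old CR arrays of the first run lay below every array of the other groups, and Old CR replicate 5, from the second run, equalled the lowest Old ND array. Creld2 fell in Old CR by 0.80 ± 0.15 relative to Old ND (1.75-fold, adjusted p = 0.00883) and by 1.00 ± 0.15 relative to Young ND (adjusted p = 0.000155). It was 0.92 ± 0.15 higher in Old CR-ND than in Old CR (1.89-fold, adjusted p = 0.00959). Old CR-ND and Old ND differed by 0.12 ± 0.15, which did not pass (adjusted p = 0.998). Within the first run the 2 differences were -0.82 (adjusted p = 0.0130) and 1.02 (0.0415), and in the second run, with its lone Old CR array, -0.48 (0.997) and 0.47 (0.994). A block for the run left both past the threshold (0.00444 and 0.00546).

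Manf encodes a small ER protein that binds the chaperone BiP and is partly secreted under stress. Manf levels were 11.02, 10.92, 10.95, 10.52 and 10.97 in Young ND, and 10.76, 10.37, 10.68, 10.31 and 10.65 in Old ND. Manf in Old CR stood at 9.97, 10.20, 9.81, 9.56 and 10.18, and in Old CR-ND at 10.54, 10.98, 10.30, 10.43 and 10.55. All 5 Old CR arrays lay below all arrays of the other 3 groups. Manf fell by 0.61 ± 0.14 in Old CR against Old ND (1.53-fold, adjusted p = 0.0215) and by 0.93 ± 0.14 against Young ND (1.91-fold, adjusted p = 9.78e-05). The difference of 0.62 ± 0.14 between Old CR-ND and Old CR missed the threshold (adjusted p = 0.0532), and a block for the run took it past (0.0374). Within the runs the fall against Old ND was -0.72 (adjusted p = 0.0267) and -0.30 (0.997). The call against Old ND rested on 4 arrays, replicates 1 and 3 of Old ND and replicates 3 and 4 of Old CR: leaving out any 1 of them gave an adjusted p between 0.0566 and 0.0708 and a count of 1 member called in that comparison.

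Hyou1, the large chaperone that helps BiP release its clients, showed its lowest values in the same group. Hyou1 levels were 8.67, 8.94, 8.80, 8.61 and 8.99 in Young ND, and 8.84, 8.34, 8.63, 8.50 and 8.72 in Old ND. Hyou1 in Old CR stood at 8.16, 8.33, 7.79, 7.66 and 8.58, and in Old CR-ND at 8.52, 8.95, 8.33, 8.83 and 8.65. The Old CR arrays ranged from 7.66 to 8.58, the widest spread of the 4 groups, and overlapped Old ND. Hyou1 was 0.50 ± 0.15 lower in Old CR than in Old ND, which did not pass (adjusted p = 0.0889), and it fell by 0.70 ± 0.15 against Young ND (1.62-fold, adjusted p = 0.00359). Within the first and second run the difference was -0.62 and -0.03 against Old ND, and -0.82 and -0.22 against Young ND. The second run held 1 Old CR array. Its other 2 probe sets differed by -0.42 and -0.32 in Old CR against Old ND, and neither passed.

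Sdf2l1, a partner of the co-chaperone Dnajb11, followed another order. Sdf2l1 levels were 8.41, 8.47, 8.72, 8.13 and 8.70 in Young ND, and 7.68, 7.85, 8.23, 7.76 and 8.03 in Old ND. Sdf2l1 in Old CR stood at 7.91, 7.93, 7.92, 7.99 and 7.83, and in Old CR-ND at 8.46, 8.70, 7.98, 8.77 and 8.29. The Old ND and Old CR arrays lay low together, and the Old CR-ND arrays overlapped both Young ND and Old ND. Sdf2l1 fell by 0.58 ± 0.14 in Old ND against Young ND (1.49-fold, adjusted p = 0.00758) and by 0.57 ± 0.14 in Old CR against Young ND (adjusted p = 0.00723). Old CR and Old ND differed by 0.01 ± 0.14. Old CR-ND stood 0.53 ± 0.14 above Old ND and 0.52 ± 0.14 above Old CR, and neither difference passed (adjusted p = 0.405 and 0.104).

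Dnajc3, a BiP co-chaperone also known as P58IPK, fell by 0.35 ± 0.11 in Old ND against Young ND (1.27-fold, adjusted p = 0.0449) and by 0.51 ± 0.11 in Old CR against Young ND (adjusted p = 0.00336). Dnajc3 levels were 9.75, 9.61, 9.48, 9.34 and 9.66 in Young ND, and 9.45, 9.02, 9.21, 9.16 and 9.27 in Old ND. Dnajc3 in Old CR stood at 8.99, 9.16, 8.93, 8.99 and 9.24, and in Old CR-ND at 9.35, 9.58, 8.90, 9.24 and 9.22. The Young ND and Old ND arrays overlapped only where Old ND replicate 1 exceeded Young ND replicate 4. The fall in Old ND held when either of those 2 arrays was left out, and it was lost without any other single array (adjusted p from 0.0524 to 0.112). Within the runs it was -0.39 (adjusted p = 0.156) and -0.28 (0.339). Dnajb11, the co-chaperone ERdj3, fell in Old CR against Young ND alone, by 0.44 ± 0.12 (1.36-fold, adjusted p = 0.0187). Dnajb11 levels were 8.24, 8.23, 8.48, 8.56 and 8.72 in Young ND, and 7.83, 8.07, 8.13, 8.38 and 8.24 in Old ND. Dnajb11 in Old CR stood at 7.67, 7.92, 8.02, 8.10 and 8.32, and in Old CR-ND at 8.20, 8.49, 8.26, 8.52 and 8.41. The groups overlapped, and leaving out Old CR replicate 1 or Young ND replicate 5 ended the call (adjusted p 0.0626 and 0.0632). Its difference of -0.32 ± 0.12 in Old ND against Young ND had an adjusted p of 0.107, or 0.0188 with a block for the run.

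Hspa5 (BiP, the main ER chaperone of the Hsp70 family), Hsp90b1 (its Hsp90 counterpart) and Dnajb9 (the BiP co-chaperone ERdj4) passed in none of the 6 comparisons. Hspa5 averaged 10.30 ± 0.20 (SD, n = 5) in Young ND, 10.41 ± 0.18 in Old ND, 10.18 ± 0.17 in Old CR and 10.41 ± 0.18 in Old CR-ND, with all 20 arrays between 9.99 and 10.59. Its difference of -0.23 ± 0.11 between Old CR and Old ND had an adjusted p of 0.354, and its second probe set gave -0.33 (0.366). Hsp90b1 averaged 11.11 ± 0.09, 10.98 ± 0.08, 11.07 ± 0.07 and 11.13 ± 0.10 in the same order, and Dnajb9 9.38 ± 0.36, 9.34 ± 0.20, 9.18 ± 0.08 and 9.36 ± 0.22. For these 3 genes all 4 groups overlapped.

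**Figure D2:**
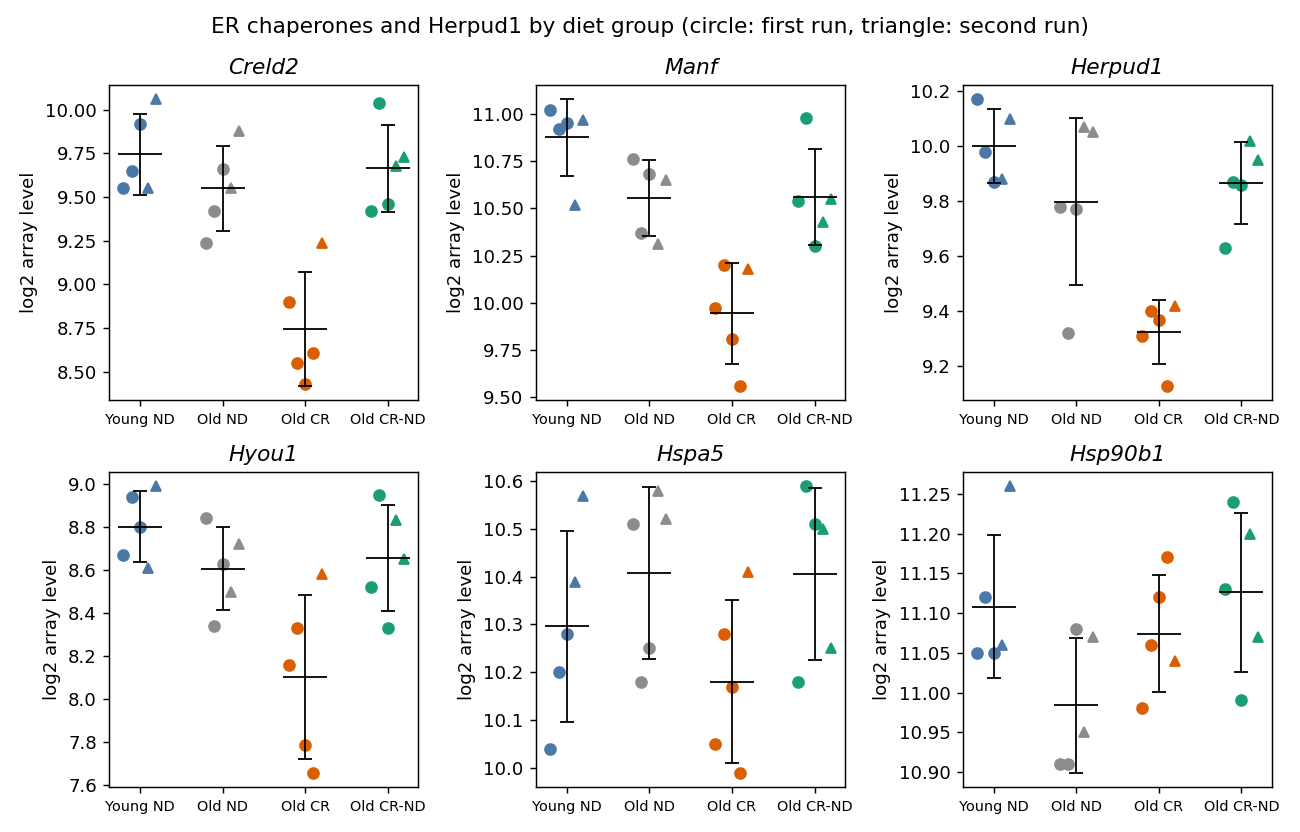
Log2 array levels of 6 genes in the 4 groups, 1 point per array (circles first run, triangles second run), with the group mean as a long line and the SD as whiskers. Manf in Old CR lies between 9.56 and 10.20, below all other arrays, whereas the Hspa5 and Hsp90b1 points of the 4 groups overlap.

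The 5 lectin chaperones and disulphide isomerases, which fold glycoproteins and pair cysteines, passed in none of the 6 comparisons. Calr (calreticulin) and Canx (calnexin), the lectin chaperones, had group means between 9.94 and 10.11 and between 10.16 and 10.23. Pdia4 showed the largest age difference of the 5, at -0.29 ± 0.11 in Old ND against Young ND (adjusted p = 0.0934), which a block for the run took past the threshold (0.0312). Pdia6 differed by -0.22 ± 0.10 (adjusted p = 0.210). Pdia3 was measured by 1 probe set with a mean level of 5.73, under the median gene level of 5.88, where small differences are hard to see.

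Of the 7 sensors and transcription factors, Xbp1 and Eif2ak3 fell in Old ND against Young ND and in Old CR against Young ND, Xbp1 alone fell in Old CR-ND against Young ND, and 0 passed in any comparison between old groups. Xbp1 levels were 9.02, 9.06, 9.00, 8.92 and 9.21 in Young ND, and 8.76, 8.42, 8.64, 8.85 and 8.68 in Old ND. Xbp1 in Old CR stood at 8.42, 8.64, 8.67, 8.47 and 8.57, and in Old CR-ND at 8.62, 8.89, 8.70, 8.89 and 8.52. All 15 old arrays lay below all 5 Young ND arrays. Xbp1 fell by 0.37 ± 0.09 in Old ND (1.29-fold, adjusted p = 0.00753), by 0.49 ± 0.09 in Old CR (1.40-fold, adjusted p = 0.000706) and by 0.32 ± 0.09 in Old CR-ND (1.25-fold, adjusted p = 0.0304), each against Young ND. Within the runs the differences in Old ND were -0.42 (adjusted p = 0.0250) and -0.30 (0.405). The call in Old CR-ND ended when any 1 of replicates 1, 2 and 5 of Young ND and 1, 3 and 5 of Old CR-ND was left out (adjusted p between 0.0507 and 0.0884). The other 3 Xbp1 probe sets differed by -0.47, -0.42 and -0.47 in Old ND, and an array of this kind does not separate the spliced mRNA from the unspliced one.

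Eif2ak3 levels were 6.68, 6.98, 7.06, 7.18 and 7.35 in Young ND, and 6.28, 6.16, 6.47, 6.99 and 6.43 in Old ND. Eif2ak3 in Old CR stood at 6.19, 6.37, 6.67, 6.77 and 6.66, and in Old CR-ND at 6.41, 7.03, 6.48, 6.86 and 6.63. Old ND replicate 4, at 6.99, and Old CR-ND replicate 2, at 7.03, were the old arrays that reached the upper 4 Young ND arrays, which began at 6.98. Eif2ak3, which encodes PERK, fell by 0.58 ± 0.16 in Old ND against Young ND (adjusted p = 0.0179) and by 0.52 ± 0.16 in Old CR (1.43-fold, adjusted p = 0.0329). The call in Old ND ended when replicate 2 of Old ND or 5 of Young ND was left out (adjusted p between 0.0537 and 0.0579). The call in Old CR ended when any 1 of replicates 1 and 2 of Old CR and 3, 4 and 5 of Young ND was left out (between 0.0542 and 0.0999). Averaged over its 3 probe sets, the difference was -0.37 in Old ND (adjusted p = 0.000348) and -0.26 in Old CR-ND (0.0121), where the brightest probe set gave -0.37 ± 0.16 and did not pass (0.192).

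The other sensors passed in no comparison. Ern1 levels were 7.74, 7.78, 7.50, 7.97 and 7.82 in Young ND, and 8.28, 7.70, 8.18, 8.32 and 7.95 in Old ND. Ern1 in Old CR stood at 7.59, 7.98, 8.13, 7.39 and 8.01, and in Old CR-ND at 7.49, 7.75, 8.04, 8.00 and 7.94. Ern1, the gene of IRE1, had its highest group mean in Old ND, 0.32 ± 0.15 above Young ND (adjusted p = 0.182), with overlapping arrays, and its 5 probe sets on average differed by 0.03. Atf6 levels were 5.29, 5.41, 5.50, 5.35 and 5.36 in Young ND, and 5.17, 4.99, 5.41, 5.33 and 5.45 in Old ND. Atf6 in Old CR stood at 5.16, 5.08, 4.95, 5.05 and 5.09, and in Old CR-ND at 4.98, 5.24, 5.19, 5.49 and 5.69. Old CR arrays of Atf6 all lay below all Young ND arrays, with a difference of -0.32 ± 0.11 (adjusted p = 0.0597). Atf6 had a mean level of 5.26, under the median gene level of 5.88, where small differences are hard to see. In Old CR against Young ND the average of its 2 probe sets, -0.43, passed (adjusted p = 0.0176).

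The ATF4 arm, through which PERK and other kinases signal, was measured by Atf4 itself, by the pro-apoptotic factor Ddit3 (CHOP) and by Trib3, a pseudokinase induced by both. Atf4 levels were 10.76, 10.93, 10.56, 10.63 and 10.69 in Young ND, and 11.04, 10.36, 10.57, 10.70 and 10.54 in Old ND. Atf4 in Old CR stood at 10.82, 11.00, 10.83, 10.36 and 10.63, and in Old CR-ND at 10.55, 10.52, 10.53, 10.74 and 10.43. Each group of Atf4 arrays overlapped each other group on this probe set, the brighter of 2. Ddit3 levels were 8.09, 8.26, 7.94, 7.83 and 7.76 in Young ND, and 8.40, 7.58, 8.36, 8.07 and 7.91 in Old ND. Ddit3 in Old CR stood at 8.11, 8.52, 8.28, 7.84 and 7.94, and in Old CR-ND at 8.21, 8.10, 8.07, 7.89 and 7.84. Ddit3 was 0.09 ± 0.15 above Young ND in Old ND, and in Old CR 0.07 ± 0.15 above Old ND (adjusted p = 0.795 and 0.887). Trib3 levels were 4.75, 4.71, 4.69, 4.99 and 4.73 in Young ND, and 4.80, 4.71, 4.58, 4.75 and 4.51 in Old ND. Trib3 in Old CR stood at 4.89, 4.56, 4.74, 4.80 and 4.71, and in Old CR-ND at 4.66, 4.51, 4.57, 4.63 and 4.72. Trib3 had a mean level of 4.70, under the median gene level, where small differences are hard to see.

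ER-associated degradation returns misfolded proteins to the cytosol for the proteasome, and 3 of its 7 genes fell in Old ND against Young ND, 1 in Old CR against Old ND, 5 in Old CR against Young ND and 2 in Old CR-ND against Young ND. Herpud1 encodes a membrane protein of the degradation complex around the ubiquitin ligase HRD1. Herpud1 levels were 10.17, 9.98, 9.87, 9.88 and 10.10 in Young ND, and 9.78, 9.32, 9.77, 10.07 and 10.05 in Old ND. Herpud1 in Old CR stood at 9.31, 9.40, 9.37, 9.13 and 9.42, and in Old CR-ND at 9.63, 9.87, 9.86, 10.02 and 9.95. All 5 Old CR arrays lay below all Young ND and all Old CR-ND arrays, and Old ND replicate 2, at 9.32, was the 1 Old ND array within their range. Herpud1 fell by 0.47 ± 0.11 in Old CR against Old ND (1.39-fold, adjusted p = 0.0315) and by 0.67 ± 0.11 against Young ND (1.60-fold, adjusted p = 0.000400), and was 0.54 ± 0.11 higher in Old CR-ND than in Old CR (1.45-fold, adjusted p = 0.0444). Within the runs the fall against Old ND was -0.32 (adjusted p = 0.174) and -0.64 (0.675), and the rise after the normal diet 0.48 (0.154) and 0.56 (0.703). A block for the run left both past the threshold (0.0194 and 0.0260), and averaging its 2 probe sets did not (0.123 and 0.119). The fall against Old ND held without Old ND replicate 2 or Old CR replicate 5 and was lost without any other single array of those groups (adjusted p from 0.0583 to 0.104). The rise in Old CR-ND held without Old CR replicate 5 or Old CR-ND replicate 1 and was lost without any other single array (adjusted p from 0.0634 to 0.147).

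Derl1 and Derl2 encode derlins, membrane proteins through which degradation substrates leave the ER. Derl1 levels were 9.19, 9.35, 9.31, 9.39 and 9.41 in Young ND, and 8.57, 8.84, 8.82, 8.95 and 8.97 in Old ND. Derl1 in Old CR stood at 8.89, 8.95, 9.08, 9.08 and 9.01, and in Old CR-ND at 8.93, 9.21, 9.03, 9.16 and 8.99. Every Old ND and every Old CR array of Derl1 lay below every Young ND array, and Old CR-ND replicate 2 alone among the old arrays reached the Young ND range. Derl1 fell by 0.50 ± 0.08 in Old ND (1.41-fold, adjusted p = 0.000155), by 0.33 ± 0.08 in Old CR (adjusted p = 0.00654) and by 0.27 ± 0.08 in Old CR-ND (adjusted p = 0.0405), each against Young ND. The last call ended when any 1 of replicates 2, 3, 4 and 5 of Young ND and 1, 3 and 5 of Old CR-ND was left out (adjusted p between 0.0593 and 0.106). Derl2 levels were 8.67, 8.52, 8.59, 8.22 and 8.76 in Young ND, and 8.21, 7.94, 8.18, 7.91 and 8.12 in Old ND. Derl2 in Old CR stood at 8.15, 8.09, 7.87, 7.89 and 8.04, and in Old CR-ND at 8.25, 8.33, 8.10, 8.18 and 7.96. No Old ND or Old CR array of Derl2 reached the lowest Young ND array, at 8.22, and 2 Old CR-ND arrays exceeded it. Relative to Young ND, Derl2 fell by 0.48 ± 0.10 in Old ND (1.39-fold, adjusted p = 0.00211), by 0.54 ± 0.10 in Old CR (adjusted p = 0.000629) and by 0.39 ± 0.10 in Old CR-ND (adjusted p = 0.0168), and the last was lost without Young ND replicate 5 (0.0531). Its second probe set, at a mean level of 4.88, differed by -0.01 in Old ND against Young ND, so that the mean of both gave -0.25 (adjusted p = 0.0242) there and -0.21 (0.0785) in Old CR-ND. Derl3, at group means between 6.21 and 6.27, passed in no comparison.

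Edem1, a lectin that picks trimmed glycoproteins for disposal, fell by 0.54 ± 0.16 in Old ND (1.45-fold, adjusted p = 0.0288) and by 0.48 ± 0.16 in Old CR (adjusted p = 0.0470), each against Young ND. Edem1 levels were 8.30, 8.34, 7.88, 7.81 and 7.89 in Young ND, and 7.81, 6.99, 7.37, 7.75 and 7.61 in Old ND. Edem1 in Old CR stood at 7.29, 7.82, 7.96, 7.20 and 7.54, and in Old CR-ND at 7.73, 7.74, 7.84, 7.75 and 7.72. The groups overlapped. The call in Old ND ended when any 1 of replicates 1 and 2 of Young ND and 2 and 3 of Old ND was left out (adjusted p between 0.0655 and 0.0913). That in Old CR ended when any 1 of replicates 1, 2 and 5 of Young ND and 1, 4 and 5 of Old CR was left out (between 0.0550 and 0.140). Averaged over its 2 probe sets the difference in Old CR was -0.42 and did not pass (0.0518). Within the runs the difference in Old ND was -0.78 (adjusted p = 0.0419) and -0.17 (0.587).

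Syvn1, the gene of HRD1 itself, fell by 0.44 ± 0.13 in Old CR against Young ND (1.36-fold, adjusted p = 0.0271). Syvn1 levels were 7.25, 7.52, 6.97, 7.22 and 7.52 in Young ND, and 7.23, 6.63, 7.03, 7.37 and 7.15 in Old ND. Syvn1 in Old CR stood at 6.66, 6.94, 6.79, 6.67 and 7.20, and in Old CR-ND at 6.97, 7.16, 7.14, 7.20 and 7.19. Old CR replicate 5 and Young ND replicate 3 lay inside the range of the other group. The call ended when any 1 of replicates 2 and 5 of Young ND and 1, 3 and 4 of Old CR was left out (adjusted p between 0.0599 and 0.0799). Sel1l, which anchors HRD1, passed in no comparison, with group means between 9.53 and 9.72.

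The 4 translocation and export genes, through which secretory proteins enter and leave the ER, fell in Old ND against Young ND without exception, with a median difference of -0.71. All 4 also fell in Old CR against Young ND (median -0.64), and 2 of the 4 in Old CR-ND against Young ND (median -0.54), and 0 passed between old groups. Sec24d encodes a cargo-binding subunit of the COPII coat, which is needed for the export of procollagen from the ER. Sec24d levels were 9.05, 9.20, 9.12, 9.03 and 9.24 in Young ND, and 8.05, 7.71, 8.02, 8.24 and 8.24 in Old ND. Sec24d in Old CR stood at 8.20, 8.52, 8.32, 8.25 and 8.31, and in Old CR-ND at 8.17, 8.45, 8.18, 8.39 and 8.32. No old array exceeded 8.52, and no Young ND array lay under 9.03. Sec24d fell by 1.08 ± 0.09 in Old ND (2.11-fold, adjusted p = 1.37e-07), by 0.81 ± 0.09 in Old CR (1.75-fold, adjusted p = 5.49e-06) and by 0.83 ± 0.09 in Old CR-ND (1.77-fold, adjusted p = 8.96e-06), each against Young ND. The differences within the first and second run were -1.20 and -0.89 for Old ND, -0.80 and -0.82 for Old CR, and -0.86 and -0.78 for Old CR-ND, and each passed within its run. The second-run value for Old CR rests on 1 array, whose spread was taken from the other groups, so that this pass has no replicate check of its own. Old CR stood 0.27 ± 0.09 above Old ND (adjusted p = 0.146) and Old CR-ND 0.25 ± 0.09 above it (0.868), and neither passed.

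Ssr1, a subunit of the TRAP complex beside the translocation channel, separated the young and old arrays as well. Ssr1 levels were 11.02, 11.19, 10.86, 10.76 and 10.82 in Young ND, and 10.31, 10.44, 10.50, 10.32 and 10.15 in Old ND. Ssr1 in Old CR stood at 10.47, 10.61, 10.73, 10.61 and 10.48, and in Old CR-ND at 10.49, 10.56, 10.24, 10.31 and 10.34. The lowest Young ND array, at 10.76, lay above the highest old array, at 10.73. Ssr1 fell by 0.59 ± 0.09 in Old ND (adjusted p = 0.000126), 0.35 ± 0.09 in Old CR (adjusted p = 0.0109) and 0.54 ± 0.09 in Old CR-ND (adjusted p = 0.000530), each against Young ND. Its other 3 probe sets gave -0.76, -0.47 and -0.70 in Old ND, and all 3 passed. Old CR stood 0.24 ± 0.09 above Old ND (adjusted p = 0.194), and the average of the 4 probe sets, 0.25, passed (0.0469).

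Sec61b and Sec61a1 encode the beta and alpha subunits of the translocation channel itself. Sec61b levels were 8.87, 8.96, 8.63, 9.25 and 9.61 in Young ND, and 7.92, 8.02, 8.00, 8.54 and 8.68 in Old ND. Sec61b in Old CR stood at 8.07, 8.19, 8.17, 8.06 and 8.73, and in Old CR-ND at 8.44, 8.46, 8.32, 8.90 and 8.51. The arrays of the second run read higher than those of the first in Young ND, Old ND and Old CR, and the groups overlapped across runs. Sec61b fell by 0.83 ± 0.18 in Old ND against Young ND (1.78-fold, adjusted p = 0.00395) and by 0.82 ± 0.18 in Old CR (1.77-fold, adjusted p = 0.00396). Within the runs the difference in Old ND was -0.84 (adjusted p = 0.000116) and -0.82 (0.0168). The difference of -0.54 ± 0.18 in Old CR-ND did not pass (adjusted p = 0.0826) until the run entered the fit as a block (0.000532). Sec61a1 levels were 10.31, 10.61, 10.31, 10.55 and 10.76 in Young ND, and 9.90, 9.68, 10.02, 10.22 and 10.30 in Old ND. Sec61a1 in Old CR stood at 9.88, 10.01, 9.90, 10.05 and 10.34, and in Old CR-ND at 10.02, 10.27, 10.04, 10.21 and 10.15. All Old ND arrays of Sec61a1 lay below all Young ND arrays, the closest pair being 10.30 and 10.31. Sec61a1 fell by 0.48 ± 0.12 in Old ND (1.40-fold, adjusted p = 0.00793) and 0.47 ± 0.12 in Old CR (adjusted p = 0.00839). In Old CR-ND the difference was -0.37 ± 0.12 (adjusted p = 0.0580), and both the block for the run (0.00782) and the average of its 4 probe sets (0.000187) took it past the threshold.

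**Figure D3:**
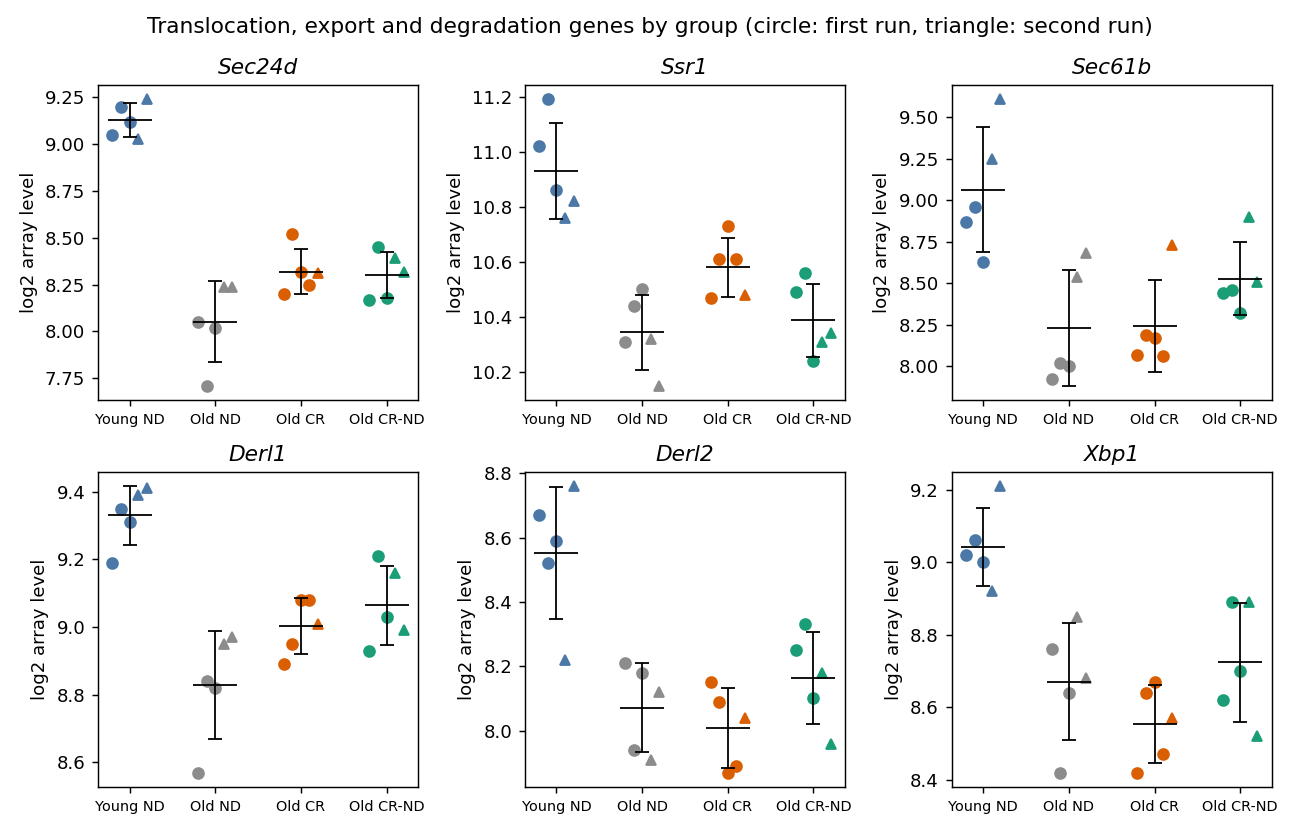
Log2 array levels of 6 translocation, export, degradation and regulator genes in the 4 groups, 1 point per array (circles first run, triangles second run), with the group mean as a long line and the SD as whiskers. All Sec24d arrays of the 3 old groups lie at or below 8.52 and all Young ND arrays at or above 9.03, and Sec61b reads higher in the second run within Young ND, Old ND and Old CR.

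The rest of the secretory machinery was followed in lists of other genes. These lists were chosen with earlier results of these data known, so their counts describe the lists and are no test of them. Of 39 other ER export and retrieval genes, 28 fell with age on the normal diet and 0 rose, with a median of -0.57 (-0.60 and -0.50 within the runs). Lman1, a receptor that carries glycoproteins out of the ER, fell by 1.10 ± 0.10 (adjusted p = 2.39e-07). Kdelr3, which returns escaped chaperones, fell by 1.30 ± 0.12, the COPII GTPase Sar1a by 0.75 ± 0.07 and the cargo receptor Surf4 by 0.81 ± 0.08. Of 27 other translocation, signal peptide and glycan transfer genes, 15 fell and 0 rose (median -0.33). Ssr2, another TRAP subunit, fell by 1.10 ± 0.12, and Dad1 of the oligosaccharyltransferase by 0.66 ± 0.08. Ostc, of the same enzyme, fell by 1.16 ± 0.09 and the signal peptide peptidase H13 by 0.54 ± 0.07, but the means of their probe sets differed by -0.62 and -0.09, the last of which did not pass (adjusted p = 0.354).

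In the same comparison, 18 of 37 other ER folding genes fell and 1 rose (median -0.35). The prolyl isomerase Fkbp11 fell by 1.89 ± 0.14 (3.70-fold, adjusted p = 2.82e-08), and the average over its probe sets by 0.68. Fkbp7, a relative, fell by 0.89 ± 0.08, the calcium-binding protein Rcn3 by 0.84 ± 0.08 and the collagen chaperone Serpinh1 by 0.79 ± 0.08. The 1 gene that rose was the thioredoxin-related Tmx4 (0.54 ± 0.11, adjusted p = 0.00231), named after its value was seen. Of 22 other degradation genes 8 fell and 0 rose (median -0.23), among them the ubiquitin-conjugating enzymes Ube2g2 (-0.49 ± 0.08) and Ube2j2 (-0.44 ± 0.10), the selenoprotein Selenos (-0.55 ± 0.11) and Ubac2 (-0.36 ± 0.08). Of 21 other regulators of the response 3 fell and 0 rose (median -0.05). These were Creb3 (-0.86 ± 0.09) and Creb3l1 (-1.03 ± 0.15), ER-bound transcription factors of which the second is known for its part in collagen secretion, and Wfs1 (-0.59 ± 0.15), a membrane protein of the ER.

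Of 36 integrated stress response targets of ATF4, 11 fell with age and 1 rose (median -0.23). They included Gars, the glycyl-tRNA synthetase (-1.08 ± 0.08, adjusted p = 2.27e-08), Aldh1l2 of mitochondrial folate metabolism (-2.54 ± 0.20), the amino acid transporter Slc7a1 (-1.17 ± 0.15) and Aldh18a1 of proline synthesis (-1.40 ± 0.19). The transporter Slc38a2 rose by 0.35 ± 0.09 (adjusted p = 0.0179) and was named after its value was seen. Atf4 itself differed by -0.07 ± 0.12 in the same comparison, but its second and dimmer probe set (mean level 5.49) fell by 0.32 (adjusted p = 0.0405), and the average of both, -0.20, did not pass (0.156). Of 26 cytosolic and mitochondrial chaperones, which serve other compartments, 0 fell and 1 rose (median -0.04), the Hsp40 protein Dnaja1 (0.26 ± 0.08, adjusted p = 0.0488). Both counts are near the shares of all genes, 6.49% lower and 4.45% higher.

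In Old CR against Old ND the same lists held few calls. Surf4 (0.33 ± 0.08, adjusted p = 0.0265) and Cope, a subunit of the COPI coat (0.30 ± 0.07, adjusted p = 0.0270), rose among the 39 export genes, whose median was 0.16. Ero1b, an oxidase that feeds the disulphide isomerases, fell by 0.34 ± 0.09 (adjusted p = 0.0449), but not in the average of its probe sets (0.254). Ddit4, an inhibitor of the mTORC1 kinase induced by many stresses, rose by 0.71 ± 0.16 (1.64-fold, adjusted p = 0.0193) among the 36 ATF4 targets. In the lists of other translocation, other degradation, other regulator and cytosolic chaperone genes 0 passed, with medians of 0, 0.07, 0.13 and -0.01, and at an unadjusted p under 0.05 they held 5, 4, 8 and 3 genes. The smallest p in those lists belonged to Sec11c (-0.43 ± 0.14) and Dad1 (0.25 ± 0.08), Ngly1 (0.32 ± 0.12) and Ubac2 (0.20 ± 0.08), Tnfrsf10b (-0.68 ± 0.20) and Creb3l1 (0.41 ± 0.15), and Dnaja1 (0.21 ± 0.08) and Hspb1 (-0.54 ± 0.24), with adjusted p from 0.0860 to 0.295.

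Cell type markers were read on the same arrays. The 8 fibroblast markers averaged between 10.55 and 10.64 per group, and none lay under the lower quartile. Of these, Col1a1 fell by 0.48 ± 0.08, Col3a1 by 0.27 ± 0.07 and Cd34 by 0.30 ± 0.09 in Old ND against Young ND (adjusted p = 0.000264, 0.00808 and 0.0303). Averaged over its probe sets, Col3a1 fell by 1.62 (adjusted p = 1.46e-07). Pdgfra, which the sort selected for, was 0.49 ± 0.17 higher in that comparison (adjusted p = 0.0699, and 0.00701 with a block for the run). Plasma and B cells are rich in secretory chaperones, and their 6 measured markers averaged between 4.73 and 4.78 per group with 0 called in any comparison. Beside the age differences, 1 of the 5 genes sorted against was called. Cd24a averaged 6.73 ± 0.49 in Young ND, 5.56 ± 0.30 in Old ND, 4.83 ± 0.15 in Old CR and 5.43 ± 0.43 in Old CR-ND. Between old groups Cd24a differed by -0.73 ± 0.21 in Old CR against Old ND (adjusted p = 0.0740). In Old CR-ND against Old CR it differed by 0.60 ± 0.21 (adjusted p = 0.284). Neither difference passed, and in both the arrays of the groups did not overlap. The summed level of the 5 genes (log2 of the sum of linear levels) ranged from 7.48 to 8.11 in Young ND and from 7.01 to 7.44 in Old ND, and 2 of the 5 lay under the lower quartile in each group. Of 10 leukocyte markers 8 were higher and 2 lower with age (median 0.02), and 1 was called, Csf1r (-1.20 ± 0.10). Cd68 was 0.94 ± 0.32 higher (adjusted p = 0.0680, and 0.000743 with a block for the run). The list had summed levels from 8.84 to 9.15 in Young ND and 8.85 to 9.37 in Old ND and 3 of the 10 under the lower quartile. Of 8 endothelial markers 4 were higher and 4 lower with age (median -0.01). Tek rose by 1.02 ± 0.29 (adjusted p = 0.0239), and Kdr was lower, at -0.91 ± 0.31 (0.0635, and 0.0207 with a block for the run). The list had summed levels from 8.02 to 8.63 in Young ND and 7.99 to 8.57 in Old ND and 1 of the 8 under the lower quartile. Of 6 pericyte and smooth muscle markers 4 were higher and 2 lower with age (median 0.09). Kcnj8 rose by 1.03 ± 0.27 and Des fell by 0.35 ± 0.11 (Kcnj8 0.33 and 2.08 within the runs), with summed levels from 8.16 to 8.41 in Young ND. Beside the restriction differences, 1 of these 6 was called in Old CR against Old ND, the potassium channel Kcnj8 (1.29 ± 0.27, adjusted p = 0.0156). In that comparison 2 of the 6 were higher and 4 lower (median -0.07). Summed levels ran from 8.86 to 9.07 in Old CR, 8.17 to 8.63 in Old ND and 8.53 to 8.84 in Old CR-ND, with 1 of the 6 under the lower quartile. The 9 keratinocyte markers held 0 calls, and their mean ranged over the arrays from 6.18 to 7.43 in Young ND, from 5.76 to 8.20 in Old ND, where replicate 1 was the highest, from 6.58 to 7.26 in Old CR and from 6.67 to 7.74 in Old CR-ND. Beside the higher Creld2 and Herpud1 of Old CR-ND against Old CR, all 9 were higher in that comparison (median 0.40, or 0.05 and 0.34 within the runs), with Krt14 at 0.95 ± 0.37 (unadjusted p = 0.0193, adjusted p = 0.364). Their summed levels ran from 10.11 to 10.99 in Old CR and 10.23 to 11.47 in Old CR-ND, with 0 of the 9 under the lower quartile. The part of these cell types in the results was not tested.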

How the data were processed

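Dermal fibroblast RNA of 20 mice was measured on Affymetrix arrays. The authors deposited log2 levels of probe sets, and RMA and the affy package stand in the submitters' processing notes (versions not given in the sources used here). RMA normalizes quantiles over arrays, so shifts shared by most genes are removed. Of 45141 probe sets, 28898 named 1 gene. Those naming several (551) or none (15692) were left out. Symbols were updated by Entrez number through RefSeq (GRCm38.p6), with 28689 matches. Each of the 17097 genes kept its brightest probe set over all arrays, with no filter on dim genes.

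Groups came from the labels. All 20 arrays were fitted with limma 3.58.1 in R 4.3.3 (lmFit, eBayes, 1 mean per group, no covariate), and tests were two-sided with Benjamini-Hochberg adjustment over all genes. Day of collection was not used here. Arrays carry no depth, so their number limits the precision (median standard error 0.0965). The fit was tested on simulated data. Members and lists were chosen with earlier results of these data known. Per-array values are given for members called in any comparison and for sensors and transcription factors. From each other list the 4 called genes of smallest adjusted p at most, or 2 at most where none passed, are named in Old ND against Young ND and in Old CR against Old ND. Alternatives covered probe sets, dim genes, normalization, variance model, array weights, groups in the fit, runs, single arrays and the threshold.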

Additional observations from a re-analysis of the deposited data

Results flagged for a closer look

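Of 128 groups of 5 arrays (32 genes in 4 groups), 5 held an array whose gap to the nearest other array exceeded 0.71 of the range of the group, and chance gives about 1 in 20. Manf in Young ND replicate 4 read 10.52, against 10.92 to 11.02 in the other 4 arrays. Trib3 in the same array read 4.99, against 4.69 to 4.75. Sec61b in Old CR replicate 5, the only second-run array of its group, read 8.73, against 8.06 to 8.19. Edem1 in Old CR-ND replicate 3 read 7.84, against 7.72 to 7.75, and Syvn1 in Old CR-ND replicate 1 read 6.97, against 7.14 to 7.20.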

How the results depend on the processing

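Counts are of members called, in either direction. In Old CR-ND against Old CR the count of 2 became 1 with the mean of probe sets, with arrays centred on the median, in the first run alone and at a threshold of 0.01, 5 with array weights and 0 within the second run, where the median was 0.04. In Old CR against Old ND the count of 3 became 1 with only the 2 groups fitted and at 0.01, and 0 within the second run. In Old CR-ND against Young ND the count of 5 became 3 with trend and robust and in the first run alone, and 2 in the second run alone and at 0.01. The counts of 11 (Old ND) and 17 (Old CR) against Young ND became 3 and 1 within the second run, and the median of Old CR against Young ND was -0.44 with dim genes left out by their highest group mean. The within-run settings hold fewer arrays. For the others the cause was not tested.

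Without 1 array at a time the counts ranged from 8 to 12 (Old ND against Young ND), 1 to 4 (Old CR against Old ND), 0 to 0 (Old CR-ND against Old ND), 1 to 4 (Old CR-ND against Old CR), 13 to 16 (Old CR against Young ND) and 2 to 6 (Old CR-ND against Young ND), and from 11 to 16 for the test over 4 groups. Medians ranged, in that order of comparisons, from -0.27 to -0.15, -0.07 to 0.02, 0.02 to 0.09, 0.10 to 0.18, -0.37 to -0.32 and -0.17 to -0.09. In Old CR-ND against Old CR the count was 1 without Old CR replicate 1, 2, 3 or 4 or Old CR-ND replicate 2, 4 or 5, and 4 without Old CR replicate 5. In Old CR-ND against Young ND it was 3 without Young ND replicate 2 or Old CR-ND replicate 1, 3 or 5, and 2 without Young ND replicate 5. Single arrays were left out for the members, not for the other lists. No paired analysis was possible because the labels number no replicates.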
